A study of Homo sapiens with 9 samples.

Results

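Carbonic anhydrases and pH transporters were described in uCaco-2 cells, that is Caco-2 cells kept undifferentiated and proliferating (Caco-2 is a line from a human colon adenocarcinoma). The group was set by gene symbol and held 9 of the 60591 symbols of the counts table, the carbonic anhydrase genes CA2, CA9, CA12 and CA13 and the transporter genes SLC9A2, SLC9A3, SLC4A4, SLC4A7 and SLC26A3. Of these 9 genes, 8 passed the expression filter, as did 15944 of all symbols, and CA9 did not. Cells near confluence received fresh medium (control), medium with 300 μM CoCl2 or medium with 5 μM of an oxyquinoline derivative (OD), each with 0.5% DMSO, and were lysed after 24 h. There were 3 biological replicates per condition. CoCl2 and OD are both used as chemical activators of hypoxia-inducible factor (HIF), since cobalt can replace iron in the prolyl hydroxylases that mark HIF for decay and OD can block their active center. All 3 groups came from 1 cell line in monoculture, so values describe these cells and not intestinal tissue.

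Carbonic anhydrases turn carbon dioxide and water into bicarbonate and a proton, and back. CA2 and CA13 work in the cytosol, while CA9 and CA12 sit in the plasma membrane with the active site facing outward, and CA9 is a widely used marker of the HIF response. Sodium-proton exchangers of the SLC9 family export protons for sodium, SLC4A4 and SLC4A7 carry sodium together with bicarbonate, and SLC26A3 exchanges chloride for bicarbonate at the apical membrane of colon cells, where together with SLC9A3 it takes up salt.

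Libraries held 15998136 to 24209427 counts. The total number of reads counted on these 9 genes was small, with means over the 9 libraries from 5.11 counts for CA9 and 12.4 for SLC26A3 to 567 for SLC9A2. Epithelial markers of the line (EPCAM, CDH1, KRT8, KRT18 and KRT19) had at least 12522 counts in every library. The lowest raw counts of VIL1, CDX2 and KRT20 were 1397, 786 and 17, each in a CoCl2 library. For CDX2 the raw counts of the groups overlapped, with 908 to 1095 in control cells and 786 to 1231 with CoCl2. Of the 5 genes listed as ones the line should lack, DCN and PTPRC had at most 2 and 3 counts. The rest of that list, COL1A1, COL3A1 and PECAM1, had 20 to 480 counts. CoCl2 libraries differed in composition from the others, so the scaling mattered for them. With library size alone in place of the TMM factors of edgeR, the median log2 fold change of all tested genes moved from -0.049 to -0.55 with CoCl2 against control cells and from -0.054 to -0.60 with CoCl2 against OD. The share of upregulated genes among those called moved with it, from 46.0% to 23.9% and from 42.4% to 18.3%. Values below are on the TMM scale, where CPM stands for a library's counts scaled to a common TMM-corrected size.

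Promoters of some of the genes that the results turn on are shown here, as the 250 bases before the start of transcription in RefSeq on GRCh38.p14, written 5′ to 3′ on the strand of the gene. Of the genes that rose with OD, CA9, CA12 and SLC26A3 are shown, and SLC9A2 and SLC9A3 are shown because they fell with CoCl2. SLC4A4 and CA2 also rose with OD and are not shown. SLC4A4 has 5 starts, none with the letters described next, and no promoter of CA2 was printed. Capitals mark the core letters of the HIF binding motif, ACGTG or GCGTG, on either strand (CACGT and CACGC are the same letters read from the other strand).
CA9: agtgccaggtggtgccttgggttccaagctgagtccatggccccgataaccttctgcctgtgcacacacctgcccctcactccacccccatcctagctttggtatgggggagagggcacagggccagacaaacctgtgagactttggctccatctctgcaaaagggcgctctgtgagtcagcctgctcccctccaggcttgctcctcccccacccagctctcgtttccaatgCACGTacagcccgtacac
CA12: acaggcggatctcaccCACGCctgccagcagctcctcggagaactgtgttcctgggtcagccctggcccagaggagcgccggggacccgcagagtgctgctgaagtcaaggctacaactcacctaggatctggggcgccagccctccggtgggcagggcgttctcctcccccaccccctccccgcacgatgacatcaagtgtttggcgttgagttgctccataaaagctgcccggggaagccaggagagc
SLC26A3: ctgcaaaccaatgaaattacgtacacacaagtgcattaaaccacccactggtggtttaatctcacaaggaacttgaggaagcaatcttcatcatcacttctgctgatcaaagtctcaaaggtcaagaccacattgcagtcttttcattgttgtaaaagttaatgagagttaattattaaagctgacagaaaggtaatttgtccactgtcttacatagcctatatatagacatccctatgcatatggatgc
SLC9A2: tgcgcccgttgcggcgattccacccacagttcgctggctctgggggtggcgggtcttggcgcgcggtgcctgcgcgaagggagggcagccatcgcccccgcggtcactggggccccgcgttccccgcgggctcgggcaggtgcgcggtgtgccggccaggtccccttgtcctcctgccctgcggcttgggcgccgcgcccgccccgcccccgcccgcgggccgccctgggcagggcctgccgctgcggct
SLC9A3: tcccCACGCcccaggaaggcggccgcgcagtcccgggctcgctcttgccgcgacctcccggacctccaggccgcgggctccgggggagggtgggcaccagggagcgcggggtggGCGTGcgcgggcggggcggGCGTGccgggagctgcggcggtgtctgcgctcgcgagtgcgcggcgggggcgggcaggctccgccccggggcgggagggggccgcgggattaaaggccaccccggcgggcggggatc

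These windows lie at chr9:35673678-35673927 on the plus strand for CA9, at chr15:63381847-63382096 on the minus strand for CA12, at chr7:107803224-107803473 on the minus strand for SLC26A3, at chr2:102619303-102619552 on the plus strand for SLC9A2 and at chr5:524450-524699 on the minus strand for SLC9A3. The motif began 18 bases before the start in CA9 and 234 bases before it in CA12, and SLC9A3 held it 3 times, at 246, 136 and 117 bases. The windows of SLC26A3 and SLC9A2 held no match. RefSeq promoters were matched for 7 of the 9 genes, with 12 starts in all, because SLC4A4 has 5 starts and SLC4A7 has 2. Of these 12 windows, 4 held the motif, against 43.2% of all 35116 promoter windows of the same length. The 5 windows of SLC4A4 held no match, and 1 of the 2 windows of SLC4A7 held 2. A match describes letters in the window and was not tested as a binding site.

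CoCl2 and OD were first compared with control cells over the whole group. Genes were called when the edgeR quasi-likelihood test gave a Benjamini-Hochberg adjusted p under 0.05 and the log2 fold change was above 1 in size. With CoCl2, 5 of the 8 tested genes were called, 3 upregulated (CA2, SLC4A4 and SLC26A3) and 2 downregulated (SLC9A2 and SLC9A3). The same rule called 43.2% of all tested genes with CoCl2, 19.9% upward and 23.4% downward. With OD, 3 of the 8 were called, all upregulated (CA12, SLC4A4 and SLC26A3), against 13.3% of all tested genes, 9.09% upward and 4.16% downward. Both comparisons used the same control libraries. With the edgeR adjusted p alone, all 8 genes passed with CoCl2, 3 higher and 5 lower, where 83.2% of all tested genes did. With OD 5 passed, 4 higher and 1 lower, where 65.6% of all tested genes did. In DESeq2 on the 6 libraries of a comparison SLC4A7 passed with neither agent, CA12 not with CoCl2 and SLC4A4 not with OD. Counting CA9, the libraries of the groups did not overlap for 7 of 9 genes with CoCl2 and 8 of 9 with OD, against 83.4% and 68.0% of all tested genes. The median log2 fold change of the 8 genes was -0.46 with CoCl2 and 0.60 with OD, beside -0.049 and -0.010 over all tested genes, and the median size was 1.05 and 0.62, beside 0.86 and 0.38.

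**Figure D1:**
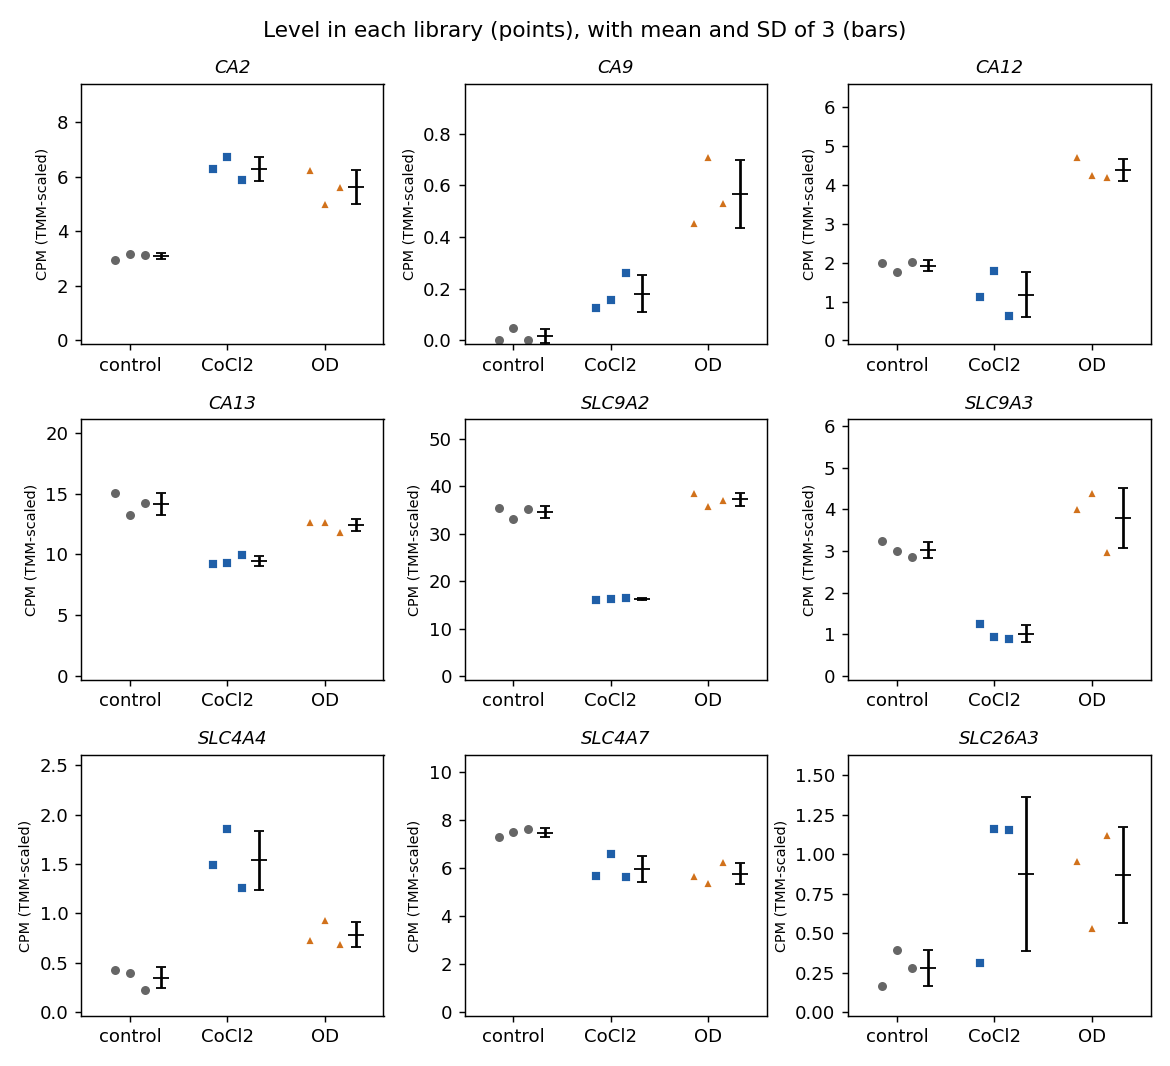
CPM of each of the 9 genes (vertical axes, linear, TMM-scaled) in the 3 control, 3 CoCl2 and 3 OD libraries, with points for libraries and bars for the mean and SD of 3. CA9 and CA12 were highest in all 3 OD libraries, SLC9A2 and SLC9A3 were lowest in all 3 CoCl2 libraries, and 1 CoCl2 library of SLC26A3 lay within the control range.

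Among the carbonic anhydrases, CA9 had the lowest level in control cells. CA9 occupies 35673928 to 35681159 of chromosome 9, plus strand (GRCh38). It had 0, 1 and 0 counts in the control libraries, 2, 2 and 5 with CoCl2 and 10, 16 and 10 with OD. Every OD library was above every CoCl2 library, and every CoCl2 library was above the control libraries. Summed over the libraries and corrected for their scaled size, the OD to control ratio was 32.3, with a counting interval of 5.44 to 1311 (95%, exact binomial), from 36 counts against 1. The CoCl2 to control ratio was 10.6 (1.47 to 466), from 9 counts against 1. The OD to CoCl2 ratio was 3.04 (1.43 to 7.17). These intervals cover counting error only. A fit of all 36105 symbols with any count, without the expression filter, gave CA9 a log2 fold change of 4.57 with OD (standard error 0.83, edgeR adjusted p = 2.3e-07) and 2.94 with CoCl2 (standard error 1.11, adjusted p = 0.0212), and placed it lower with CoCl2 than with OD by -1.63 (standard error 0.54, adjusted p = 0.00741). In DESeq2 on the 6 libraries of each comparison the adjusted p was 0.000883 with OD, 0.109 with CoCl2 and 0.0700 between the agents, and on all 9 libraries it was 0.00101, 0.0390 and 0.0910, so only the rise with OD passed in all 3 fits. Of the exonic bases of CA9, 35.7% are shared with ARHGEF39 on the other strand. The counting's strand setting is not given in the sources used here. ARHGEF39 had 481 to 608 counts in control cells, 35 to 85 with CoCl2 and 151 to 218 with OD, so it was lower with both agents, where CA9 was higher.

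CA12, the other membrane-bound enzyme of the group, separated the agents. CA12 occupies 63321378 to 63381846 of chromosome 15, minus strand. It had 37, 36 and 36 counts in the control libraries, 18, 23 and 12 with CoCl2 and 104, 96 and 79 with OD. Control cells had 1.92 ± 0.139 CPM (SD, n = 3), CoCl2-treated cells 1.18 ± 0.577 and OD-treated cells 4.40 ± 0.284. With OD it rose by a log2 fold change of 1.20 (standard error 0.18, adjusted p = 2.67e-08 by edgeR). With CoCl2 the log2 fold change was -0.79 (standard error 0.25, adjusted p = 0.00375), which missed the fold threshold, and 1 CoCl2 library (1.78 CPM) lay within the control range. Without that library, CoCl2 replicate 2, the value was -1.16 and passed, and without CoCl2 replicate 3 it was -0.43. In DESeq2 the adjusted p of CA12 with CoCl2 was 0.040 on 9 libraries and 0.107 on 6. In the direct comparison CA12 was lower with CoCl2 than with OD by -1.99 on the log2 scale (95% interval -2.41 to -1.56, adjusted p = 4.47e-13), with no overlap of libraries.

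CA2 is the fast cytosolic enzyme of many epithelia and occupies 85463968 to 85481493 of chromosome 8, plus strand. It had 55, 65 and 56 counts in the control libraries, 101, 87 and 112 with CoCl2 and 138, 113 and 106 with OD. Every treated library was above the control libraries, and the CoCl2 and OD libraries overlapped. Control cells had 3.10 ± 0.120 CPM (SD, n = 3), CoCl2-treated cells 6.30 ± 0.430 and OD-treated cells 5.64 ± 0.626. CoCl2 gave a log2 fold change of 1.01 (standard error 0.14, adjusted p = 3.92e-09 by edgeR) and OD one of 0.86 (standard error 0.14, adjusted p = 1.92e-07). Only the first passed the fold threshold, and it did so by so little that the call was lost in 6 of 15 alternatives, where the value was 0.51 to 0.998 with an adjusted p under 0.05. The lowest of these came from library size alone, and the values without control replicate 1 or CoCl2 replicate 2 were 0.98 and 0.97. The difference between CoCl2 and OD was 0.15 (95% interval -0.10 to 0.40, adjusted p = 0.264).

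CA13, another cytosolic enzyme, lies on the same arm of chromosome 8, from 85220587 to 85284073 on the plus strand. It had 280, 270 and 253 counts in the control libraries, 148, 120 and 190 with CoCl2 and 279, 286 and 223 with OD. On the CPM scale the CoCl2 libraries (9.21 to 9.96) were lowest, the OD libraries (11.9 to 12.7) came next and the control libraries (13.2 to 15.1) were highest, with no overlap. CoCl2 gave a log2 fold change of -0.57 (standard error 0.094, adjusted p = 1.76e-07 by edgeR) and OD one of -0.19 (standard error 0.085, adjusted p = 0.0505), and neither was called. With library size alone the value with CoCl2 was -1.08 and was called, with the median of all genes at -0.55. Between CA13 and CA2 lie CA1 and CA3, which had at most 1 and 5 counts in any library, so CA13 and CA2 were the expressed ends of this cluster of carbonic anhydrase genes.

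Because both genes are read in the same library, their count ratio does not depend on the scaling. There were 0.196 to 0.241 CA2 counts for each CA13 count in control cells, 0.395 to 0.495 with OD and 0.589 to 0.725 with CoCl2. The 3 conditions did not overlap, and the mean ratio was 3.03 times that of control cells with CoCl2 and 2.07 times with OD (two-sided exact permutation test, p = 0.1 for each, the smallest that 3 libraries against 3 can give). CA2 counts for each CA12 count were 1.49 to 1.81 in control cells, 1.18 to 1.34 with OD and 3.78 to 9.33 with CoCl2. The CA2 to CA12 ratio thus lay on opposite sides of the control range with the 2 agents, at 3.86 times the control mean with CoCl2 and 0.793 times with OD (exact permutation p = 0.1 for each). These pairs were chosen after the values of the genes were seen.

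**Figure D2:**
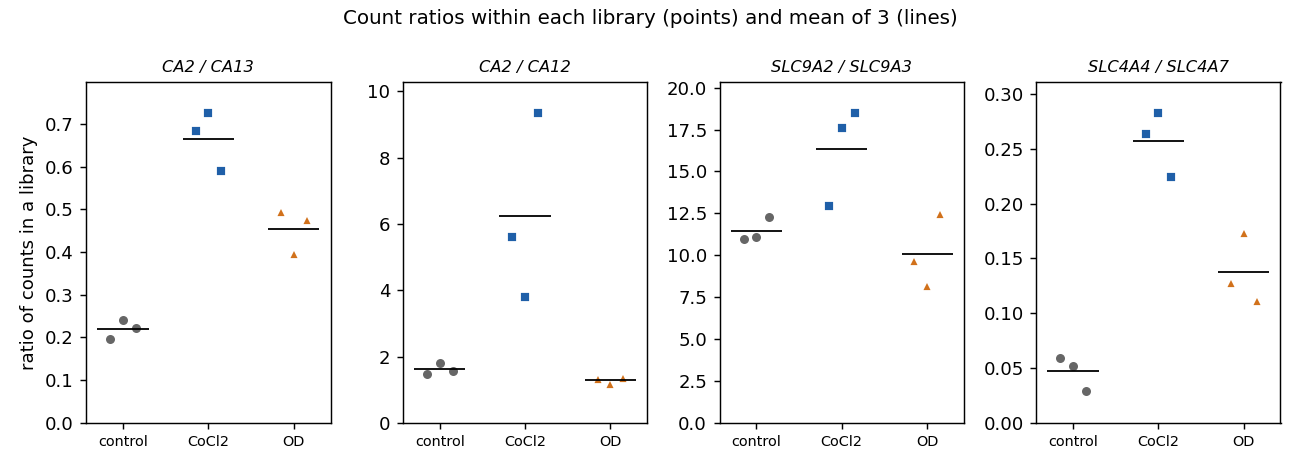
Counts of one gene divided by counts of another in the same library (vertical axes, linear) for 4 pairs, with points for libraries and lines for the mean of 3. The CA2 to CA13 ratio lay at 0.196 to 0.241 in control cells and 0.589 to 0.725 with CoCl2, and the SLC4A4 to SLC4A7 ratio at 0.0294 to 0.0593 and 0.224 to 0.282.

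The sodium-proton exchangers were lower with CoCl2 and not with OD. SLC9A2, which encodes the exchanger NHE2, occupies 102619553 to 102711355 of chromosome 2, plus strand. It had 659, 676 and 627 counts in the control libraries, 259, 211 and 314 with CoCl2 and 850, 808 and 697 with OD. CoCl2 lowered it from 34.6 ± 1.26 CPM (SD, n = 3) to 16.3 ± 0.178, and OD-treated cells had 37.2 ± 1.37. The log2 fold change with CoCl2 was -1.08 (standard error 0.071, adjusted p = 7.55e-22 by edgeR), and it was called in 15 of 15 alternatives, with values from -1.59 to -1.03. With OD it was 0.11 (95% interval -0.015 to 0.23, adjusted p = 0.117), although every OD library was above the control libraries. The difference between CoCl2 and OD was -1.19 (standard error 0.070, adjusted p = 3.47e-24).

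SLC9A3 encodes NHE3, the main apical sodium-proton exchanger of absorbing enterocytes, and occupies 470456 to 524449 of chromosome 5, minus strand. It had 60, 61 and 51 counts in the control libraries, 20, 12 and 17 with CoCl2 and 88, 99 and 56 with OD. The 3 CoCl2 libraries were far below the others, and 1 OD library lay within the control range. CoCl2 lowered it from 3.03 ± 0.186 CPM (SD, n = 3) to 1.02 ± 0.194, a log2 fold change of -1.56 (standard error 0.23, adjusted p = 7.68e-09 by edgeR), and OD-treated cells had 3.79 ± 0.728 (0.34, standard error 0.16, adjusted p = 0.0596). The difference between CoCl2 and OD was -1.90 (standard error 0.21, adjusted p = 3.16e-12). Other genes share 56.8% of the exonic bases of SLC9A3, and on the same strand PP7080, whose counts were not used here, shares 41.1%. Among them SLC9A3-AS1, on the other strand, had 389 to 450 counts in control cells, 65 to 115 with CoCl2 and 555 to 686 with OD, and its log2 fold changes were -1.87 and 0.47. EXOC3, also on the other strand, had 675 to 749, 999 to 1613 and 943 to 1078 counts, with log2 fold changes of 1.15 and 0.39. The order of conditions in SLC9A3 was thus shared by SLC9A3-AS1 and not by EXOC3, and since the strand setting of the counting is not given, their reads cannot be told apart with certainty. The median library had 11.1 SLC9A2 counts for each SLC9A3 count in control cells, 17.6 under CoCl2 and 9.66 under OD.

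Some markers of differentiated enterocytes were also lower with CoCl2. The summed level of SI, ALPI, FABP1, LCT and ANPEP was 41.7 to 46.3 CPM in control cells, 11.9 to 13.6 with CoCl2 and 53.0 to 60.1 with OD, and FABP1 made up most of it, with a mean of 31.1 CPM in control cells. Of these 5 genes, 3 were called downregulated with CoCl2 (FABP1 at -2.59, LCT at -1.55 and ANPEP at -1.36), against 23.4% of all tested genes, while ALPI had -0.55 and SI -0.050. The log2 fold changes of the 5 with OD were -0.017 to 0.75, all under the fold threshold. Of the 8 epithelial markers, 2 were called downregulated with CoCl2 (VIL1 at -2.45 and KRT20 at -1.44), against the same 23.4% of all tested genes. The rest of the 8 had log2 fold changes of 0.18 (CDX2) to 0.49 (KRT19). The summed level of all 8 was 10810 to 11339 CPM in control cells and 12906 to 13839 with CoCl2. KRT8 and KRT18 made up most of this sum, with means of 4983 and 2867 CPM in control cells and 6339 and 3442 with CoCl2. The sum therefore hardly reflects VIL1, which had means of 613 and 112 CPM. In such bulk libraries fewer cells with a transcript and less of it in each cell cannot be told apart, and the part of these shifts in the values of SLC9A2 and SLC9A3 was not tested.

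Of the bicarbonate carriers, SLC4A4 rose with both agents. SLC4A4 encodes the electrogenic sodium-bicarbonate cotransporter NBCe1 and occupies 71062667 to 71572087 of chromosome 4, plus strand. It had only 8, 8 and 4 counts in the control libraries, 24, 24 and 24 with CoCl2 and 16, 21 and 13 with OD. On the CPM scale the 3 conditions did not overlap, with 0.224 to 0.430 in control cells, 0.692 to 0.932 with OD and 1.26 to 1.86 with CoCl2. CoCl2 gave a log2 fold change of 2.07 (standard error 0.34, adjusted p = 1.68e-07 by edgeR) and OD one of 1.15 (standard error 0.37, adjusted p = 0.00585). The rise with OD was not called by DESeq2, with an adjusted p of 0.051 on 9 libraries and 0.087 on 6, nor without control replicate 3, where the log2 fold change was 0.93. The difference between the agents was 0.92 (95% interval 0.36 to 1.49, adjusted p = 0.00221), just under the fold threshold, and 0.38 with library size alone (adjusted p = 0.197). It was 1.07 without CoCl2 replicate 3 or without OD replicate 2, and was then called.

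SLC4A7 encodes the electroneutral cotransporter NBCn1 and occupies 27372721 to 27484420 of chromosome 3, minus strand. It had 135, 153 and 136 counts in the control libraries, 91, 85 and 107 with CoCl2 and 125, 121 and 117 with OD. Every treated library was below the control libraries on the CPM scale, and the treated groups overlapped. CoCl2 gave a log2 fold change of -0.34 (standard error 0.12, adjusted p = 0.00812 by edgeR) and OD one of -0.38 (standard error 0.11, adjusted p = 0.0028), both under the fold threshold. The difference between CoCl2 and OD was 0.040, with a 95% interval of -0.21 to 0.29, and its sign changed with the scaling. There were 0.0294 to 0.0593 SLC4A4 counts for each SLC4A7 count in control cells, 0.111 to 0.174 with OD and 0.224 to 0.282 with CoCl2, with no overlap. The mean ratio was 5.47 times the control ratio with CoCl2 and 2.93 times with OD (exact permutation p = 0.1 for each).

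SLC26A3 encodes the colonic chloride-bicarbonate exchanger DRA and occupies 107765467 to 107803225 of chromosome 7, minus strand. It had 3, 8 and 5 counts in the control libraries, 5, 15 and 22 with CoCl2 and 21, 12 and 21 with OD. Every OD library was above the control libraries, while the first CoCl2 library, at 0.311 CPM, lay within the control range of 0.161 to 0.392. CoCl2 gave a log2 fold change of 1.61 (standard error 0.45, adjusted p = 0.000963 by edgeR) and OD one of 1.58 (standard error 0.43, adjusted p = 0.00104). Both calls held when any 1 library was left out, with values of 1.28 to 2.02 for CoCl2 and 1.33 to 1.92 for OD. The difference between the agents was 0.031, with a 95% interval of -0.66 to 0.72 (adjusted p = 0.935). In a fit of the CoCl2 and control libraries alone SLC26A3 did not pass the expression filter.

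The direct comparison of the agents called 3 of the 8 tested genes, CA12, SLC9A2 and SLC9A3, all lower with CoCl2, against 41.3% of all tested genes (17.5% higher and 23.8% lower). With the adjusted p alone, 5 of 8 passed (83.5% of all tested genes), and counting CA9 the libraries did not overlap for 6 of 9 (83.8% of all tested genes). Of those that passed without reaching the fold threshold, CA13 was lower with CoCl2 by -0.39 (adjusted p = 0.00021) and SLC4A4 higher. CA2, SLC4A7 and SLC26A3 gave intervals that include 0. The doses differed, 300 μM against 5 μM, so the differences are between these 2 exposures.

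**Figure D3:**
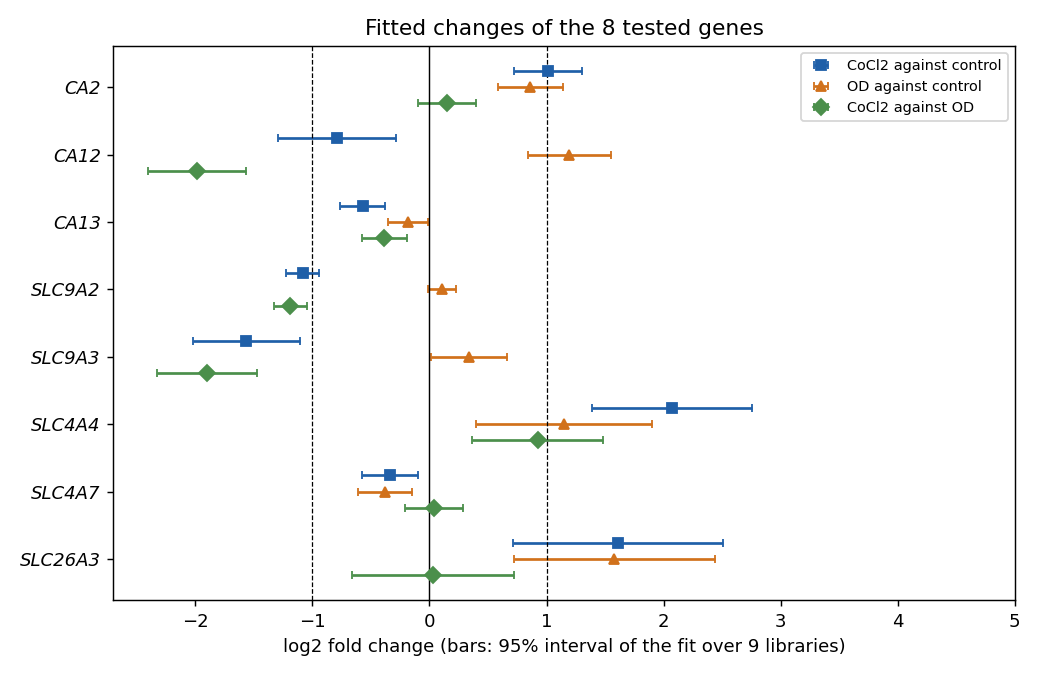
Log2 fold changes (horizontal axis) of the 8 tested genes for both agents against control cells and for their direct comparison, with bars for the 95% interval of the edgeR fit and dashed lines at the fold threshold. The point estimates of CA12, SLC9A2 and SLC9A3 lay on opposite sides of 0 with CoCl2 and OD, while those of SLC4A4, SLC26A3 and CA2 lay above 0 with both.

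Levels of different genes were compared roughly, per kb of exon. The length was that of all annotated exons of a gene, not of the transcripts present in these cells. It includes bases shared with other genes, 56.8% for SLC9A3 and 35.7% for CA9. Per kb, SLC9A2 was the highest of the 9 genes in control cells (5.60 ± 0.204 CPM per kb, SD, n = 3) and with OD (6.02 ± 0.222). CA13 (2.53 ± 0.163) and CA2 (1.54 ± 0.0600) followed in control cells, then SLC4A7, SLC9A3, CA12, SLC26A3, SLC4A4 and CA9. In this order only SLC4A4 and CA9 had overlapping ranges. With CoCl2 the order at the top turned to CA2 (3.14 ± 0.214), SLC9A2 (2.64 ± 0.0289) and CA13 (1.69 ± 0.0743), each apart from the next, while the ranges of neighbours overlapped from SLC26A3 through SLC9A3, CA12 and SLC4A4 to CA9. With OD, CA2 (2.81 ± 0.312) passed CA13 (2.22 ± 0.0834). SLC9A3 (0.659 ± 0.127), CA12 (0.628 ± 0.0405) and SLC4A7 (0.599 ± 0.0453) then overlapped, as did CA9 (0.354 ± 0.0821) and SLC26A3 (0.257 ± 0.0893), and SLC4A4 was lowest. CA9 thus moved from the last place in control cells to the seventh with OD.

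**Figure D4:**
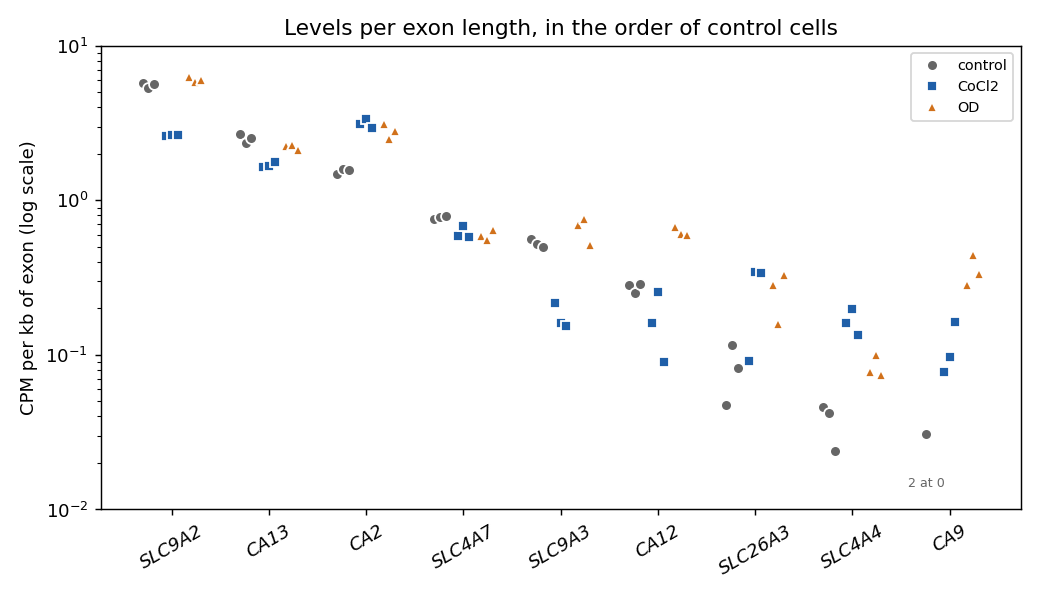
CPM per kb of exon (vertical axis, log scale) for the 9 genes in the order of their control means, with points for the 3 libraries of each condition and a note of libraries at 0 for CA9. SLC9A2 was highest in control cells at 5.60, and CA2 was highest with CoCl2 at 3.14.

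Genes with the most similar pattern were sought for the 6 members with at least 20 counts on average, by the Pearson correlation of log2 CPM over the 9 libraries, which mostly follows the 3 condition means. Among them were ZHX2 (0.989) and SERPINE2 (0.987) for CA2, ULK2 (0.984) and MFNG (0.970) for CA12, TIMM22 (0.994) and EDF1 (0.992) for CA13, B4GALNT3 (0.999) and CTDSP1 (0.998) for SLC9A2, TGFB3 (0.996) and PARP3 (0.995) for SLC9A3, and AP4S1 (0.972) for SLC4A7. The pattern of SLC9A2 was common, as 357 other genes correlated with it above 0.99, while no gene did so with CA2, CA12 or SLC4A7.

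A wider list of 65 other genes of acid and salt transport was counted in the same way, and 38 passed the expression filter. With CoCl2, 19 of the 38 were called, 5 upregulated and 14 downregulated, and with OD 7, of which 6 were upregulated. These shares of 50% and 18.4% stand beside 43.2% and 13.3% of all tested genes. The median log2 fold change of the 38 genes was 0.077 with CoCl2 and 0.16 with OD. Of the 7 called with OD, 6 stayed called in every alternative that kept the fold threshold and in which they were tested. Of the 19 called with CoCl2, 16 did. The exceptions with CoCl2 were CA8, CA14 and SLC16A8, and the exception with OD was SLC16A8. The filter of at least 10 counts in every library left some of the called genes untested. Under it 3 genes of the wider list were called with OD and 15 with CoCl2.

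Among the other 11 carbonic anhydrases 4 were tested, and all 4 were called with CoCl2, against 43.2% of all tested genes, or 2 with library size alone. CA5B, a mitochondrial enzyme, rose by a log2 fold change of 1.67 with CoCl2 (adjusted p = 1.61e-13 by edgeR) and had 0.27 with OD. CA11, a carbonic anhydrase-related protein without enzyme activity, fell with CoCl2 (-1.73) and had 0.18 with OD. CA8, another such related protein, rose with both agents, by 1.19 and 1.60, and CA14, a membrane enzyme, rose with CoCl2 by 1.19. CA8 and CA14 had means of 0.370 and 0.350 CPM in control cells, and with library size alone or with DESeq2 on 6 libraries neither was called with CoCl2 (0.69 for each with library size alone, against a median of all genes of -0.55).

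Among the other 11 members of the SLC9 exchanger family, 7 were tested. SLC9A4 (NHE4) fell with both agents, at -3.51 on the log2 scale with CoCl2 and -2.11 with OD. SLC9A7, an exchanger of the trans-Golgi network, fell with CoCl2 (-1.16) and had 0.65 with OD, and SLC9A5 rose with OD by 1.57 and had 0.048 with CoCl2. Of the NHE regulators, the scaffold genes SLC9A3R2 and PDZK1 fell with CoCl2 (-1.30 and -1.23), while SLC9A3R1, EZR and CHP1 had 0.42, 0.81 and 0.86, under the fold threshold, and the 5 tested genes had -0.14 to 0.64 with OD.

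Of 16 other SLC4 and SLC26 genes, 9 were tested, with 1 called up and 4 down with CoCl2 (19.9% and 23.4% of all tested genes) and 2 called up with OD (9.09% of all tested genes). SLC26A2, a sulfate transporter abundant in colon epithelium, had 119 ± 6.86 CPM (SD, n = 3) in control cells, fell to 17.0 ± 0.470 under CoCl2 (-2.81 on the log2 scale) and was at 219.8 ± 10.8 under OD (0.89 on the log2 scale, under the fold threshold). SLC4A3, an anion exchanger, fell with CoCl2 (-2.07) and rose with OD (1.13), and SLC4A8 and SLC26A8 fell with CoCl2 (-1.09 and -1.22). SLC26A1 rose by 1.82 with CoCl2, and SLC4A11 rose by 1.25 with OD. Of the lactate-proton cotransporters, SLC16A3 (MCT4), which exports lactate together with a proton, had 7.75 ± 0.236 CPM (SD, n = 3) in control cells and rose to 22.9 ± 1.57 under CoCl2 and 59.0 ± 2.16 under OD. It was lower with CoCl2 than with OD by -1.37 on the log2 scale. SLC16A7 fell with CoCl2 (-2.11). SLC16A8 had -1.20 with CoCl2 and 1.09 with OD, and these calls were lost in 7 of 12 and 4 of 13 alternatives, DESeq2 and the omission of single libraries among them. Of 4 listed proton pumps and channels none passed the expression filter, and of 4 proton-sensing receptors 1 did, with 0.48 and 0.24.

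All 7 genes of salt transport partners were tested. CFTR, the apical chloride and bicarbonate channel, had 171 ± 6.55 CPM (SD, n = 3) in control cells, fell to 23.7 ± 1.65 under CoCl2, a log2 fold change of -2.85, and was at 101 ± 5.31 under OD (-0.76, under the fold threshold). SCNN1A, a subunit of the epithelial sodium channel, and CLCN2, a chloride channel, fell with CoCl2 (-1.63 and -1.08). ATP1B1, a subunit of the sodium pump, had log2 fold changes of 0.89 with CoCl2 and -0.14 with OD. Between the agents ATP1B1 was called higher with CoCl2, by 1.02, and ANO1 lower, by -1.13. The call of ATP1B1 was lost in 4 of 14 alternatives, among them library size alone (0.48) and the fit without OD replicate 2. The direct comparison called 22 of the 38 genes, 6 higher and 16 lower with CoCl2, or 57.9% beside 41.3% of all tested genes.

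**Figure D5:**
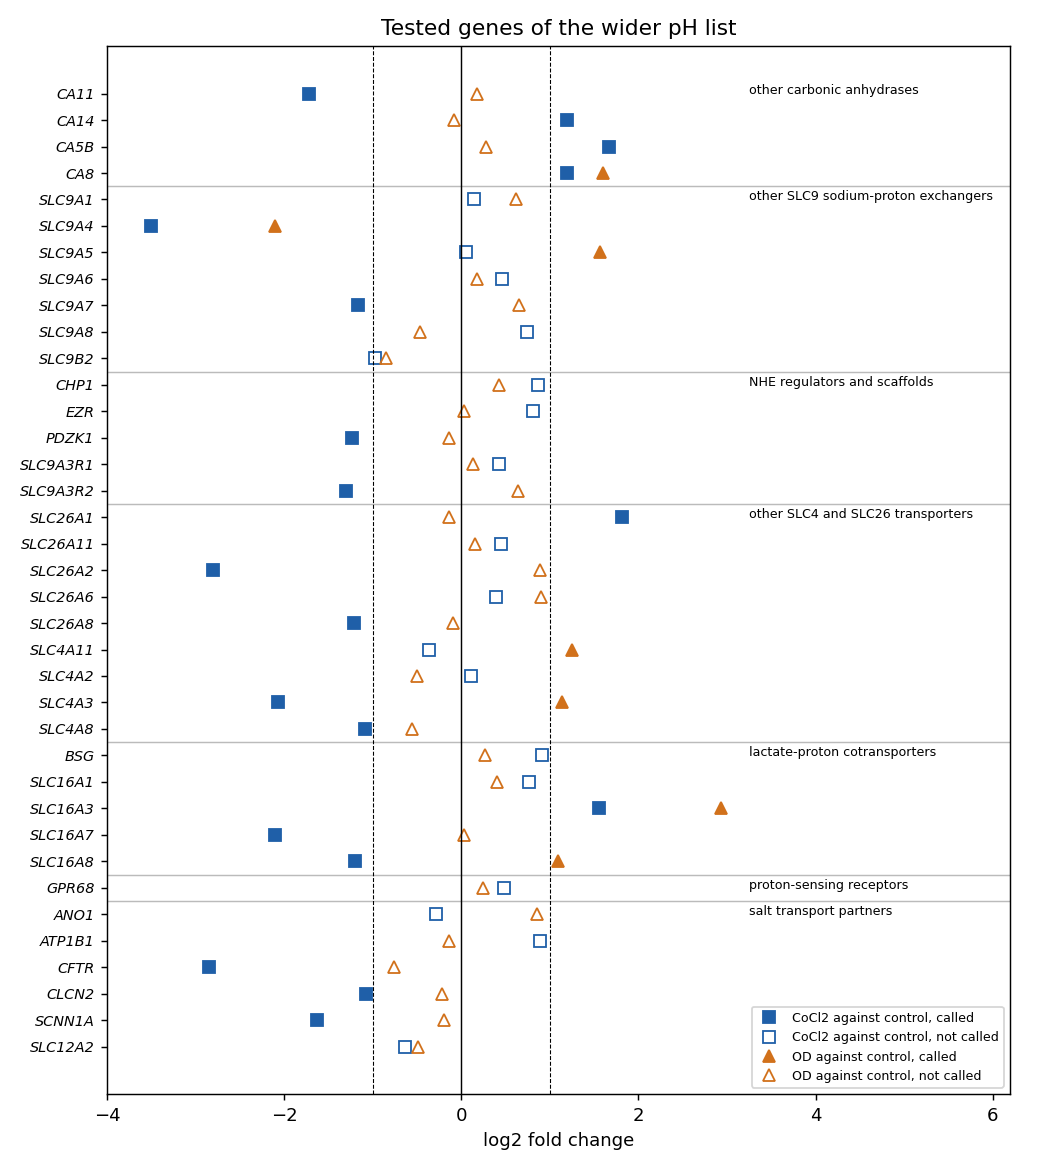
Log2 fold changes (horizontal axis) of tested genes of the wider pH list, by group, with squares for CoCl2 and triangles for OD against control cells, filled where called and open where not. SLC9A4 lay lowest with CoCl2 at -3.51, and SLC16A3 highest with OD at 2.93.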

How the data were processed

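Total RNA of 9 uCaco-2 cultures was sequenced as stranded mRNA libraries in single-end reads. Per the labels, reads were checked with FastQC (0.11.9), trimmed with cutadapt (2.10) and aligned with STAR (2.7.5b) to GRCh38.p13 with GENCODE release 34. The authors deposited raw counts per gene symbol, with no normalization. The counting tool and its strand setting are not given in the sources used here. There were 0 columns of other samples. Depth was 15998136 to 24209427 counts, and 1 read was worth 0.0444 to 0.0774 CPM.

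Groups and replicate numbers were taken from the labels. Counts were tested with edgeR (4.0.16) in R (4.3.3), by filterByExpr, TMM factors and a robust quasi-likelihood fit over all 9 libraries. Pairwise contrasts were adjusted with the Benjamini-Hochberg method over 15944 genes, with a threshold of 0.05 and a log2 fold change of 1 in size. The study's methods name DESeq2, and DESeq2 (1.42.0) was an alternative, as were RLE factors, library size alone, 2 other filters, fits on 6 libraries, a replicate block, the adjusted p alone and leaving out each library. Single values were also compared with a two-sided exact permutation test. Its p was 0.1, the smallest it can give, for every pair of groups that did not overlap. The scripts were tested on simulated data. Deviations of libraries with the same replicate number correlated at -0.0049 to 0.0376, so the numbers did not pair them. Replicate pairs differed by more than counting noise (chi-square per degree of freedom 1.82 to 3.32), and all were kept.

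All 9 members were named, and of the wider list those called in a comparison. Other genes of the wider list that are named were chosen after their values were seen. Members and lists were chosen with earlier results of these data known, and the pairs for ratios after their values were seen. Exon lengths and positions came from GENCODE release 44, and promoters from RefSeq. No promoter of CA2 or CA13 was printed. Values of some genes that these rules select are not reported here.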

Additional observations from a re-analysis of the deposited data

How the results depend on the processing

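The 24 log2 fold changes of the 8 tested genes were recomputed under 13 to 15 alternatives each, which gave 353 values. Of the 24, 21 kept their direction in every alternative run, and 12 kept direction and call. The adjusted p alone has no fold threshold, so it must change the call of a gene that missed only that threshold. It was the only alternative that changed the call of SLC4A7 with either agent, of CA2 with OD and of CA13 between the agents. The members called with CoCl2 were 2 with at least 10 counts in every library, 3 with edgeR on 6 libraries and 8 with the adjusted p alone. SLC4A4 and SLC26A3 were not tested in the first of these settings, nor SLC26A3 in the second. CA2 missed the fold threshold in both, at 0.98 and 0.998. With OD the members called were 1 with at least 10 counts in every library and 5 with the adjusted p alone. Between the agents they were 5 with the adjusted p alone. Without single libraries the count was 5 or 6 for CoCl2, 3 or 4 for OD and 3 to 5 between the agents, with the 5 from the fit without CoCl2 replicate 3. These counts can include CA9, which is not among the 8: it was tested without a filter, with DESeq2, with edgeR on the CoCl2 and OD libraries and in the fits without a control library, a CoCl2 library or OD replicate 1. Over all genes the adjusted p alone passed 13260 genes with CoCl2, 10466 with OD and 13311 between the agents, and with at least 10 counts in every library 1134 were called with OD. In the wider list the adjusted p alone passed 34, 26 and 35 genes, and 3 were called with OD with at least 10 counts in every library.

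In all, 3 differences between CoCl2 and OD, all near 0 on the TMM scale, changed sign. With library size alone the median of all tested genes was -0.60. CA2 was -0.40 with library size alone (edgeR adjusted p = 0.0031). SLC26A3 was -0.51 with library size alone, -0.033 without a filter, -0.0043 with DESeq2 on 6 libraries, -0.021 with the replicate block and -0.30 to 0.44 without single libraries. SLC4A7 was -0.51 with library size alone (edgeR adjusted p = 0.00021). It was -0.025 without a filter, -0.014 with at least 10 counts in every library and -0.022 to 0.087 without single libraries. The cause was not tested. CA12 with CoCl2 was -1.29 with library size alone, and was then called.

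The replicate block called 5 members with CoCl2, 3 with OD and 3 between the agents, and 6901, 2115 and 6568 genes in all. Depth limited CA9, SLC26A3 and SLC4A4 most, since they had few counts in control cells.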
